A study of Arabidopsis thaliana with 25 samples.

Results

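The WRKY transcription factors were followed through root RNA-Seq of Arabidopsis grown in soils that differ in phosphorus (P) supply. The set holds 44 genes taken by identifier, out of 27206 protein-coding genes counted in 25 libraries, and WRKY38 and WRKY70 were not in it. All roots came from 8-week-old greenhouse plants sown directly into soil of a long-term field trial. Yearly P inputs per hectare were 0 kg for the low, 15 kg for the medium and 45 kg for the high P soil, and the low+P pots were low P soil to which 12.6 mg of P per pot was added. Wild type plants were Col-0. The phf1 mutant, in the Col-0 background, lacks a protein that lets phosphate transporters leave the endoplasmic reticulum, and the phr1 phl1 double mutant, also in Col-0, lacks a pair of transcription factors that drive the phosphate starvation response (PSR). For Col-0 as for phf1, each field soil was covered by 3 libraries and low+P by 2. For phr1 phl1, low P was covered by 2 libraries and low+P by 1. Replicate and plot could not be tied to single columns of counts, so the letters A, B and C name the libraries within a group without any order. The labels tie the samples to field plots, so the spread covers soil plots as well as preparation.

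WRKY proteins bind DNA through a domain named after its conserved WRKY heptapeptide, and they recognise the W-box, a short motif found in many defence gene promoters, their own included. Group I proteins have a pair of such domains, while groups IIa to IIe and III have a single domain and differ in the zinc finger and flanking sequence. The family is best known for defence, wounding and senescence, where mitogen-activated protein kinases phosphorylate members such as WRKY33. A few members act in phosphate nutrition: WRKY6 and WRKY42 repress PHO1, which loads phosphate into the xylem, WRKY42 and WRKY45 activate the uptake transporter gene PHT1;1, and WRKY75 is induced by phosphate starvation and modulates root growth. The members fell into group I (9 genes), IIa (3), IIb (6), IIc (10), IId (6), IIe (4) and III (6).

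The codons of the heptapeptide are shown for the phosphate-linked members and for WRKY50 and WRKY51, a pair known to carry lysine where the other members have glutamine. Capitals mark the sixth codon, at which that residue lies, in RefSeq gene models of TAIR10.1 (the counts were made on TAIR10). All of them lie in coding exons.
WRKY6 (AT1G62300), chr1:23017701-23017721, minus strand: tggagaaaatatggcCAGaag
WRKY42 (AT4G04450), chr4:2220298-2220318, plus strand: tggagaaaatacggaCAAaaa
WRKY45 (AT3G01970), chr3:326932-326952, minus strand: tggaggaagtacggcCAAaaa
WRKY75 (AT5G13080), chr5:4150786-4150806, minus strand: tggaggaaatatggcCAAaag
WRKY50 (AT5G26170), chr5:9147579-9147599, minus strand: tggagaaagtatgggAAGaag
WRKY51 (AT5G64810), chr5:25908864-25908884, plus strand: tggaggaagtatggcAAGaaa
The heptapeptide occurred as 2 copies in the 9 group I members and as 1 copy in 33 members, and the variant form was found in 2 members, WRKY50 and WRKY51.

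The 250 bases before the annotated gene start are shown for 3 members that the results below turn on, WRKY33, WRKY75 and WRKY51. No other gene overlaps these windows. Capitals mark W-boxes, searched as TTGACC or TTGACT on both strands.
WRKY33 (AT2G38470), chr2:16107985-16108234, plus strand: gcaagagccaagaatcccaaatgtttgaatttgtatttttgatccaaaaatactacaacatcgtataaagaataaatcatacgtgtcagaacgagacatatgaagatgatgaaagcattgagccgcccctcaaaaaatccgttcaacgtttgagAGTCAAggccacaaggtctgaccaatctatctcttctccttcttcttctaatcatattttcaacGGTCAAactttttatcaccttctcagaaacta
WRKY75, chr5:4151202-4151451, minus strand: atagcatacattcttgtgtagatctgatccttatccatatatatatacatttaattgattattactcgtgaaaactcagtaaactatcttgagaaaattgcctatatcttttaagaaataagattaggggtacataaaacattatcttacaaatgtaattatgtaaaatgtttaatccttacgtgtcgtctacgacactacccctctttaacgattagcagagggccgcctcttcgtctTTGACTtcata
WRKY51, chr5:25907997-25908246, plus strand: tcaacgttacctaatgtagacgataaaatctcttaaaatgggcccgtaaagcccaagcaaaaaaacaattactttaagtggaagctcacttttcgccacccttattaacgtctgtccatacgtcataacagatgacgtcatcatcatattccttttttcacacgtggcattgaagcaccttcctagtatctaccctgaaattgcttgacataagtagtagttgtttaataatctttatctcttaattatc
The window of WRKY33 held 2 W-boxes, that of WRKY75 held 1, and that of WRKY51 held none. Over the family, 17 of 44 windows (38.6%) held a W-box, beside 28.4% of the 27443 windows of all protein-coding genes. The P1BS motif GNATATNC, the site that PHR1 is known to bind, was present in 2 of 44 windows (WRKY55 and WRKY71), beside 5.46% of all windows. A match of letters does not show that a factor binds there.

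Library depth and tissue composition bear on the values below. Total counts ran from 2368981 to 7408960 per library. The sum of 8 root markers ranged from 22 to 720 CPM (counts of a gene per 1000000 counts of its library), and the root hair markers COBL9 and EXP7 were at 0 in several libraries, although every library is labelled root. Library C of Col-0 low P stood apart from A and B: its root marker sum was 620 CPM, against 67.6 and 99.6 CPM, and its median rank correlation with the other libraries was 0.773, the lowest of the 25. Shoot markers summed to 306 to 552 CPM in phf1 medium P and 687 CPM in phf1 high P library A, and to at most 177 CPM elsewhere. PHR1 had 31.9 and 37.9 CPM under low P in phr1 phl1, but 73.6 CPM in the library that its label gives as phr1 phl1 low+P, a level within the range of the other genotypes, which goes against that label. PHL1 was at 95.9 and 79.3 CPM under low P and 64.1 CPM in the library labelled low+P, not below Col-0, where it ran from 13.9 to 63.6 CPM, so its level does not mark the genotype. In bulk roots, fewer cells of a type and less RNA per cell cannot be told apart.

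Across all libraries the highest levels belonged mostly to group IId and IIe genes. Per kilobase of exon, WRKY15, a calmodulin-binding group IId member, had the highest median level, 109 CPM per kb (range 52.9 to 169), followed by WRKY65 of group IIe at 69.5 (16.7 to 124), WRKY39 at 61.8 and WRKY11 at 59.8. WRKY33, the regulator of camalexin synthesis, was next at 47.2 CPM per kb. The ranges of these neighbours overlap, so their order does not exceed the spread between libraries. At the other end, WRKY42 was at 0 in 16 of 25 libraries and reached 1.29 CPM at most, and WRKY8, WRKY30, WRKY31 and WRKY55 also had libraries at 0, with medians of 0.706 to 1.22 CPM. WRKY61 was at 0 in 1 library. The family as a whole summed to 1066 to 1879 CPM per library, with 1442 to 1802 CPM under low P and 1156 and 1427 CPM under low+P in Col-0.

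**Figure D1:**
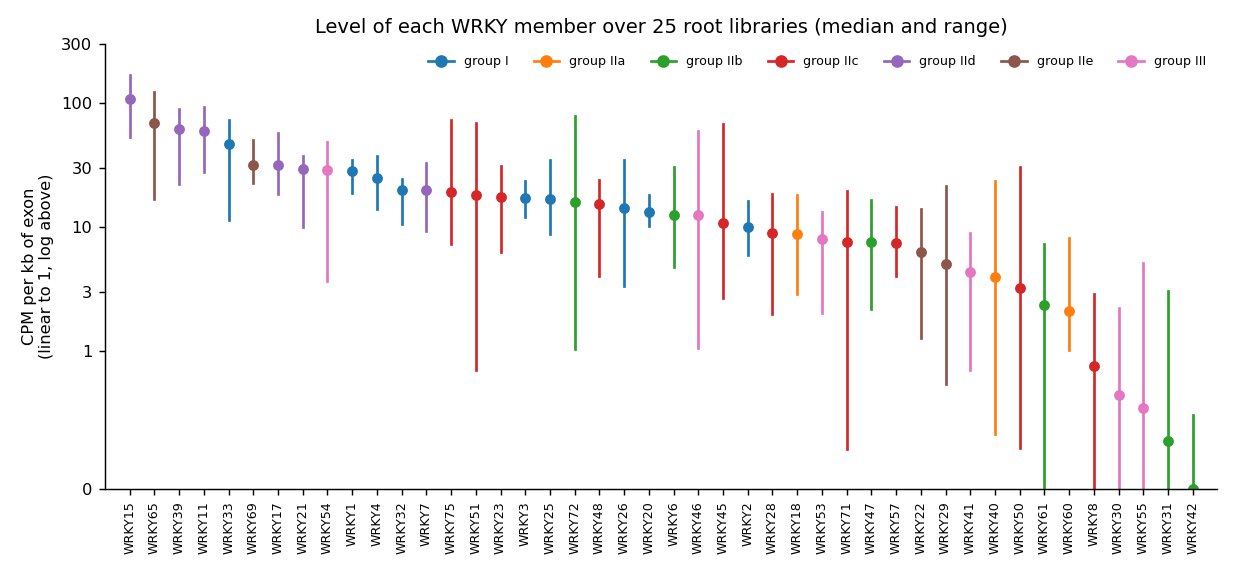
Level of the 44 WRKY members in CPM per kilobase of exon (points, median of 25 libraries; lines, lowest to highest library; axis linear below 1 and logarithmic above), coloured by structural group. WRKY15 lies highest, with a median of 109, and WRKY42 has a median of 0.

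Members differed widely in how steady they were. Among the 38 members at 0 in no library, the highest library exceeded the lowest by 1.80-fold for WRKY20, 1.83-fold for WRKY1 and 1.97-fold for WRKY3, all of group I. The same ratio was 102 for WRKY50, 79.6 for WRKY51, 74.7 for WRKY72 and 67.2 for WRKY71. Library A of Col-0 medium P held the highest value of WRKY50 (32.9 CPM), WRKY51 (65.0 CPM) and WRKY46 (80.4 CPM), and library B of the same group held the lowest value of WRKY51 (0.816 CPM) and WRKY46 (1.43 CPM). Replicates of 1 group thus spanned the whole range of these 2 genes.

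**Figure D2:**
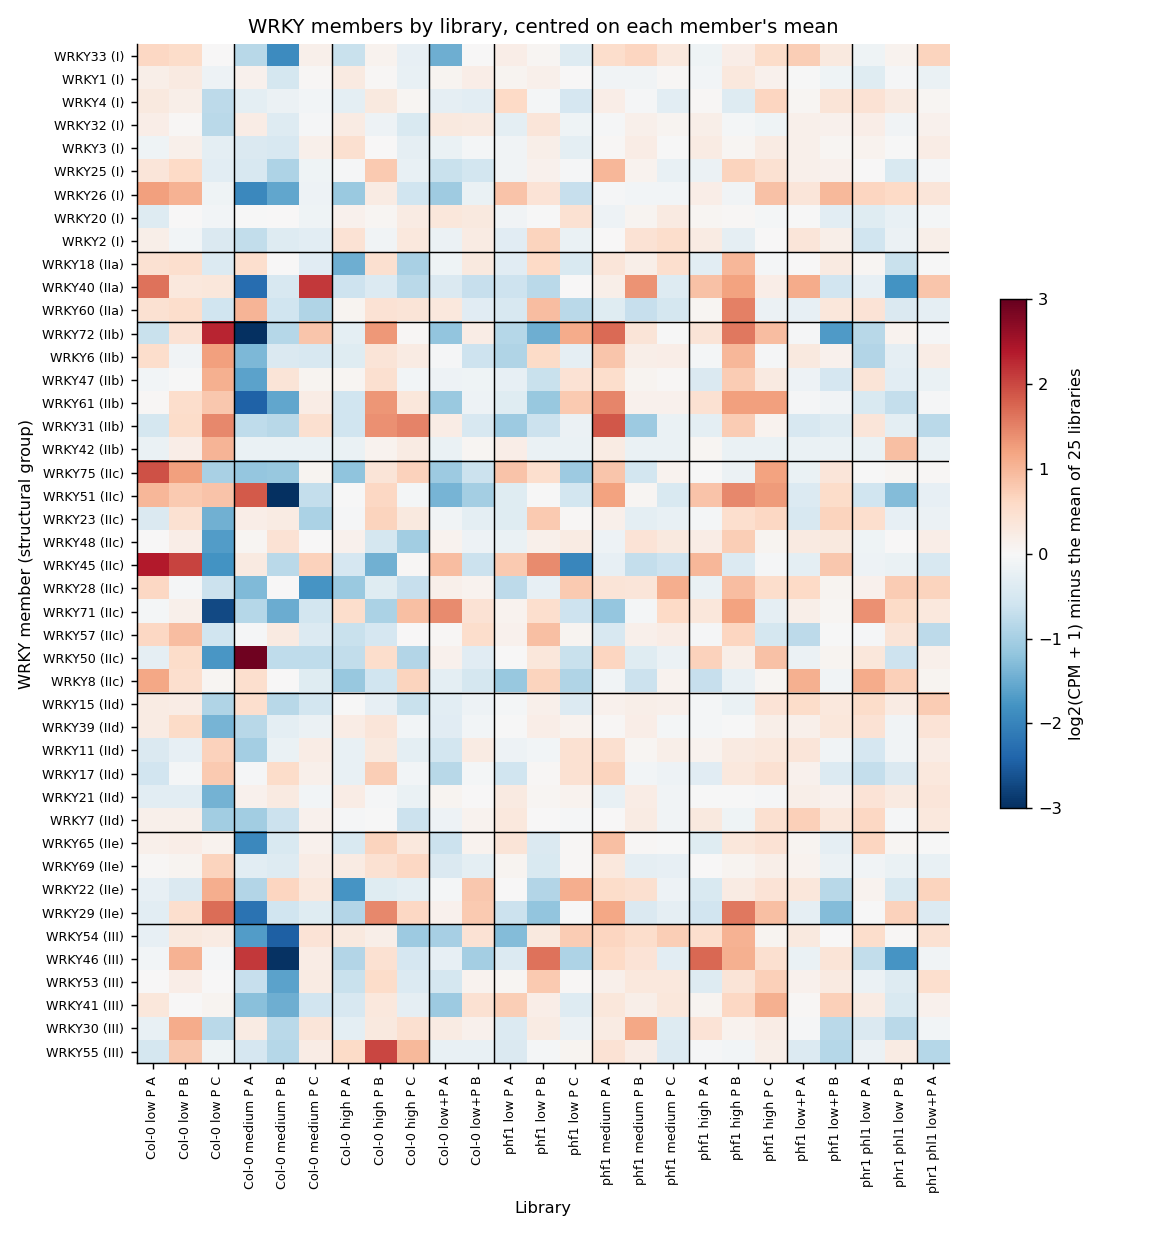
WRKY members (rows, by structural group) in each of 25 root libraries (columns, by group), as log2(CPM + 1) minus the mean of the member over all libraries. Library C of Col-0 low P is high in the group IIb members WRKY72 and WRKY6 and low in WRKY45, WRKY71 and WRKY48, unlike libraries A and B of its group.

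The first comparison asked whether members respond to a P supplement in low P soil. By the labels, the field plots of Col-0 low P and low+P samples coincide only in part. Supplement and plot thus cannot be fully told apart in Col-0. In phf1, the low+P plots all lie among the low P plots. With edgeR's quasi-likelihood test and Benjamini-Hochberg adjustment, 0 of 42 members tested passed an adjusted p of 0.1 for low P against low+P in Col-0 (0.00531% of all genes did, 1 gene), and the smallest adjusted p of a member was 0.381. At an unadjusted p under 0.05 there were 7 members, 6 higher in low P and 1 lower (7.27% of all genes, 3.56% higher and 3.7% lower). The log2 fold change was positive in 30 of 42 members (52.2% of all genes), with a median of 0.27, against 0.02 over all genes. Without library C of low P, 0 of 41 members were called, and the share of all genes was not computed for that run. DESeq2 called 2 members at the same threshold, WRKY51 and WRKY25 (1.49% of all genes), both higher in low P. The libraries of the 2 groups did not overlap for 9 members that were higher and 4 that were lower (8.37% and 10.7% of all genes).

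The phosphate-linked members pointed the same way in this comparison without passing the test. WRKY45 was at 92.7, 72.6 and 4.21 CPM under low P versus 33.6 and 10.6 CPM under low+P in Col-0. Libraries A and B of low P are the highest of all 25 for this gene, library C is nearly the lowest, and the groups overlap. Its log2 fold change was 1.26 (SE 1.13, edgeR adjusted p = 0.919). WRKY75 was at 58.9, 36.8 and 7.12 CPM under low P versus 6.48 and 9.17 CPM under low+P. Here too libraries A and B of low P lie above both low+P libraries, while library C lies between the 2 low+P values, with a log2 fold change of 2.11 (SE 0.80, edgeR adjusted p = 0.604). WRKY6 was at 43.5, 27.6 and 70.5 CPM under low P versus 29.2 and 19.1 CPM under low+P. For this repressor of PHO1 it was library C that was highest, the groups overlap, and the log2 fold change was 0.98 (SE 0.51, edgeR adjusted p = 0.745). WRKY42 gave too few reads for the edgeR test. Without library C of low P the log2 fold changes were 1.80 for WRKY45, 2.58 for WRKY75 and 0.49 for WRKY6, with edgeR adjusted p of 0.486, 0.334 and 0.681. For WRKY45 the value was 0.62 without low+P library B and 2.46 without low+P library A.

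Among the genes these members act on, PHO1 was at 832, 570 and 616 CPM under low P versus 458 and 669 CPM under low+P in Col-0, and these libraries overlap. PHT1;1 was at 65.1, 61.0 and 321 CPM under low P versus 15 and 38.7 CPM under low+P. All 3 low P libraries lie above the 2 low+P libraries, with a log2 fold change of 2.58 (SE 1.08, edgeR adjusted p = 0.662). Library C, which is lowest for WRKY45 in its group, is highest for PHT1;1. Of the 9 WRKY target genes tested, 0 were called and 8 had positive log2 fold changes, and of the 8 kinases of the cascades that act on WRKY proteins 0 were called and 5 were positive.

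WRKY51, one of a pair that mediates salicylate-dependent repression of jasmonate signalling, had the smallest p of the family. It was at 35.8, 30.7 and 32.0 CPM under low P versus 5.94 and 8.10 CPM under low+P in Col-0. All low P libraries, C included, lie close together and above both low+P libraries. The log2 fold change was 2.24 (SE 0.41, edgeR adjusted p = 0.381, DESeq2 adjusted p = 0.000364). WRKY50, its closest relative, was at 2.73, 5.52 and 0.324 CPM under low P versus 3.91 and 2.52 CPM under low+P, and these libraries overlap.

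The group I members WRKY25, WRKY26 and WRKY33, close relatives that act in heat tolerance and, for WRKY33, in resistance to necrotrophic fungi, were also among the 7. WRKY25 was at 39.8, 47.2 and 24.6 CPM under low P versus 18.9 and 20.9 CPM under low+P in Col-0. WRKY26 was at 54.9, 48.7 and 21.0 CPM under low P versus 10.4 and 19.8 CPM under low+P. For both genes every low P library lies above every low+P library, library C by the least. Their log2 fold changes were 0.89 (SE 0.27, edgeR adjusted p = 0.450) and 1.47 (SE 0.54, edgeR adjusted p = 0.577). WRKY33 was at 135, 131 and 88.3 CPM under low P versus 31.3 and 88.5 CPM under low+P. Low P library C and low+P library B meet at the same level, and the log2 fold change was 1.01 (SE 0.38, edgeR adjusted p = 0.610). It was 0.50 without low+P library A and 1.82 without low+P library B. PAD3, the camalexin gene that WRKY33 activates, was at 148, 88.0 and 13.3 CPM under low P versus 40.2 and 20.0 CPM under low+P, with overlap. The other 6 group I members had log2 fold changes between -0.47 and 0.24, among them the steady WRKY1 and WRKY3. Opposite strand genes overlap WRKY33, and the libraries were not stranded, so their reads cannot be told apart there.

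The group IIa members WRKY18, WRKY40 and WRKY60, which act together as regulators of basal defence, all had positive log2 fold changes, and 0 had an unadjusted p under 0.05. WRKY40 was at 21.9, 8.28 and 8.41 CPM under low P versus 4.45 and 3.60 CPM under low+P in Col-0. The groups do not overlap, and the log2 fold change was 1.66 (SE 0.75, edgeR adjusted p = 0.691), or 1.05 without low P library A. WRKY18 was at 25.1, 25.7 and 13.3 CPM under low P versus 16.2 and 22.1 CPM under low+P, with a log2 fold change of 0.16 (SE 0.41, edgeR adjusted p = 0.992). WRKY60 was at 5.71, 6.13 and 2.26 CPM under low P versus 5.13 and 2.88 CPM under low+P, with a log2 fold change of 0.18 (SE 0.72, edgeR adjusted p = 0.996). Both overlap, and the sign for WRKY60 turned when low P library B or low+P library B was left out. WRKY40 also overlaps a gene on the opposite strand and shares 4.07% of its 50-base stretches with other sequence of the genome.

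The remaining groups differed in their medians but held few members with an unadjusted p under 0.05. The 5 group IIb members tested were all positive (median 1.25 on the log2 scale), and 0 had an unadjusted p under 0.05. Library C is the highest of the 3 low P libraries for all 5 of them. WRKY72 was at 19.4, 42.9 and 159 CPM under low P versus 13.4 and 36.7 CPM under low+P, and WRKY47 at 14.2, 14.7 and 32.4 CPM versus 13.2 and 13.5 CPM, so that libraries A and B lie far closer to low+P than library C does. All 5 tested members of group III, which include the senescence regulator WRKY53, were positive as well, with a median of 0.29 and 0 members under 0.05. Group IId had a median of 0.18. WRKY21 of that group was the 1 member lower in low P at an unadjusted p under 0.05. It was at 46.7, 47.2 and 21.4 CPM under low P versus 62.8 and 59.5 CPM under low+P, so the groups do not overlap, with a log2 fold change of -0.69 (SE 0.29, edgeR adjusted p = 0.659). Without library C this value was -0.44.

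**Figure D3:**
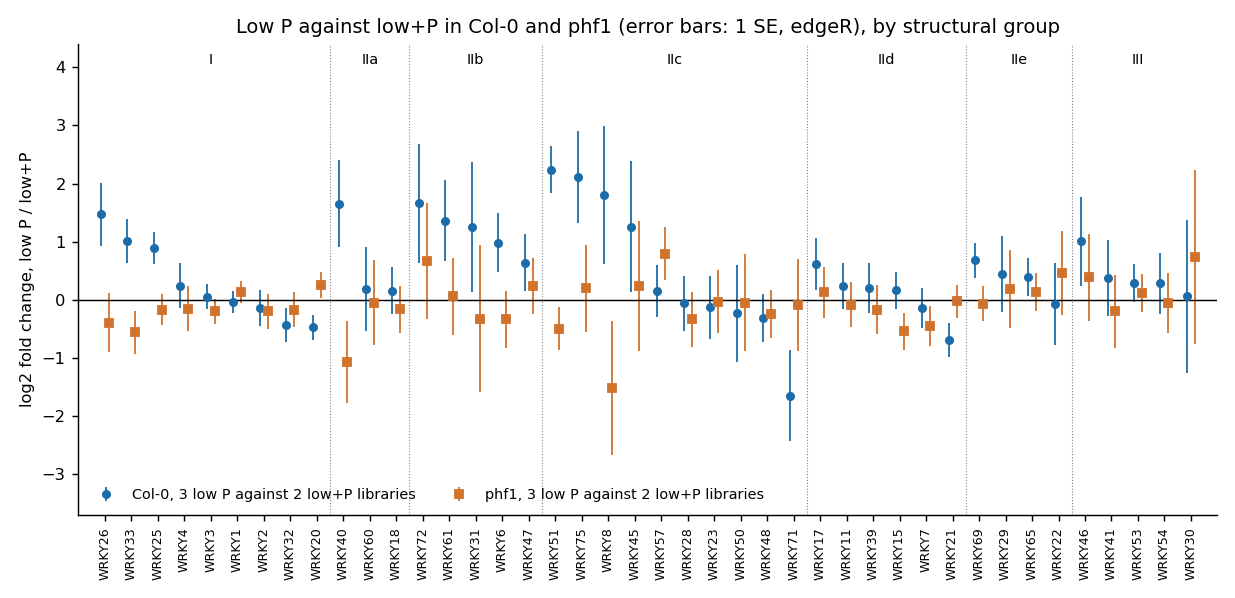
Log2 fold change of low P against low+P for the 42 members tested in Col-0 (circles) and phf1 (squares), ordered by structural group; error bars are 1 SE of the edgeR fit. WRKY51 in Col-0, at 2.24, stands farthest above 0 in the family relative to its error, whereas WRKY51 in phf1 lies below 0.

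Marker levels were examined in the same libraries. The 8 root markers all had positive log2 fold changes, with a median of 1.88, and 0 were called. Their summed level was 67.6, 99.6 and 620 CPM in low P libraries A, B and C versus 57.8 and 116 CPM under low+P. Libraries A and B thus lie between the low+P values, and only library C lies above them. The 11 genes that respond rapidly to touch and wounding, among them ZAT10, ZAT12 and TCH3, were positive in 10 cases, with a sum of 493 to 634 CPM under low P versus 242 and 440 CPM under low+P, and 0 were called. The part of the touch and wound genes in the WRKY values was not tested. With the mean log2 level of the root markers as a covariate, an alternative chosen after these differences were seen, edgeR called 5 of 42 members, against 5.55% of all genes. They were WRKY51 (log2 fold change 2.35, adjusted p = 0.0166), WRKY75 (2.23, adjusted p = 0.0230), WRKY26 (1.62, adjusted p = 0.0440), WRKY25 (0.97, adjusted p = 0.0525) and WRKY45 (1.66, adjusted p = 0.0586). All 5 were higher in low P. Under the same covariate, 0 members were called for low P against low+P in phf1 (0% of all genes).

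In phf1 the same supplement gave no member past an unadjusted p of 0.05 (0.898% of all genes), and 0 were called by edgeR or DESeq2 (0% of all genes). The log2 fold change was positive in 15 of 42 members, with a median of -0.07 (52.6% of all genes were positive). Libraries did not overlap for 2 members that were higher and 4 that were lower (6.71% and 5.55% of all genes). WRKY51 was at 13.4, 17.3 and 11.4 CPM under low P versus 12.7 and 25.9 CPM under low+P in phf1. WRKY33 was at 102, 91.6 and 67.0 CPM under low P versus 147 and 108 CPM under low+P in phf1. The 2 groups overlap for WRKY51 and do not overlap for WRKY33, which was the lower in low P, opposite to its values in Col-0. In the same contrast 11 of 11 touch and wound genes were negative (median -0.66, 2 at an unadjusted p under 0.05). So were 8 of 8 shoot markers (median -0.70) and 5 of 8 root markers. None of these genes was called by edgeR, and the part of these lists in the WRKY values was not tested. WRKY45, at 30, 47.2 and 3.63 CPM under low P versus 13.8 and 30.9 CPM under low+P in phf1, again had its lowest value in library C, where the root markers summed to 276 CPM against 29.7 and 22 CPM in A and B.

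The difference between genotypes in this response was tested as an interaction. It sets a Col-0 contrast with partly matched field plots against a phf1 contrast whose low+P plots are all matched. By edgeR, 0 of 42 members passed (0% of all genes), with 6 at an unadjusted p under 0.05, 5 of them positive and 1 negative (3.9% of all genes, 1.75% positive and 2.15% negative). The difference was positive in 31 of 42 members (51% of all genes). WRKY51 had the largest ratio of effect to error, with a difference in log2 fold change of 2.73 (SE 0.54, edgeR adjusted p = 1, DESeq2 adjusted p = 0.0264), and it was the 1 member that DESeq2 called (0.0747% of all genes). For WRKY33 the difference was 1.57 (SE 0.53) and for WRKY25 1.06 (SE 0.38), while for WRKY20 it was -0.74 (SE 0.31), with edgeR adjusted p of 1 each. With the root marker covariate edgeR called 1 member, WRKY51 (difference 2.88, adjusted p = 0.0745), beside 0.25% of all genes. For WRKY33 the difference ran from 1.06 to 2.38 without low+P library A or B of Col-0. The difference was also positive in 11 of 11 touch and wound genes (median 1.80, 5 at an unadjusted p under 0.05), 8 of 8 root markers (median 2.47) and 6 of 8 shoot markers (median 1.35, 1 at an unadjusted p under 0.05), and none was called by edgeR. The part of the touch and wound genes and the shoot markers in the WRKY values was not tested.

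In low P soil the mutants were set against the same 3 Col-0 libraries, so these comparisons share their reference with each other and with the one above. By the labels, Col-0 and phf1 low P samples came from the same field plots. The phr1 phl1 low P samples came from other plots. For phr1 phl1 against Col-0 or phf1, genotype and plot therefore cannot be told apart. Between phf1 and Col-0, 0 of 42 members were called (0.00531% of all genes) and 4 had an unadjusted p under 0.05 (4.65%), with 0 called by DESeq2 (0.167%). Between phr1 phl1 and Col-0, 0 members were called by edgeR (0% of all genes), 4 had an unadjusted p under 0.05 (7.54%), and DESeq2 called WRKY51 alone (1.02% of all genes). Libraries did not overlap for 3 members that were higher and 7 that were lower in phr1 phl1 (12.7% and 14% of all genes). WRKY51 was at 11.1 and 6.45 CPM in phr1 phl1 low P, below all Col-0 and all phf1 low P libraries. Its log2 fold change against Col-0 was -1.24 (SE 0.34, edgeR adjusted p = 0.938) in phf1 and -1.87 (SE 0.41, edgeR adjusted p = 0.556, DESeq2 adjusted p = 0.0121) in phr1 phl1.

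WRKY21 and WRKY40 were named beside WRKY51 in both comparisons. WRKY21 was at 70.8, 61.6 and 63.6 CPM in phf1 and at 78.9 and 70.9 CPM in phr1 phl1, above all Col-0 low P libraries, with log2 fold changes of 0.78 (SE 0.26, edgeR adjusted p = 0.938) and 1 (SE 0.29, edgeR adjusted p = 0.623). WRKY40 was at 3.83, 3.24 and 6.54 CPM in phf1 and at 5.26 and 1.14 CPM in phr1 phl1, below all Col-0 low P libraries, with log2 fold changes of -1.50 (SE 0.66) and -1.92 (SE 0.79). The first was -0.89 without Col-0 low P library A, and the second was -3.50 and -1.22 without phr1 phl1 library A and B. WRKY6 was at 15.8 and 24.3 CPM in phr1 phl1, below all 3 Col-0 libraries, with a log2 fold change of -1.27 (SE 0.52, edgeR adjusted p = 0.639). The value for WRKY6 was -0.78 without Col-0 library C. In phr1 phl1 against Col-0 under low P, 10 of 11 touch and wound genes were negative, 6 of them at an unadjusted p under 0.05, 8 of 8 root markers were negative (median -3.10) and 8 of 8 shoot markers positive (median 0.69). In phf1 against Col-0, 10 of 11 touch and wound genes were negative, 5 of them at an unadjusted p under 0.05, 8 of 8 root markers were negative (median -1.59) and 8 of 8 shoot markers positive (median 0.68). None was called by edgeR, and their part in the WRKY values was not tested.

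The phosphate-linked WRKY45 and WRKY75 in phr1 phl1 did not stand apart from Col-0 libraries. Under low P in phr1 phl1, WRKY45 was at 15.2 and 14.8 CPM and WRKY75 at 14.9 and 15.6 CPM. Both genes lie within the wide range of Col-0 low P, below libraries A and B and above library C. Between the 2 mutants, 0 of 42 members were called by either tool (0% of all genes by edgeR and 0.169% by DESeq2), and 0 had an unadjusted p under 0.05 (3.13% of all genes). Across all 6 low and low+P groups at once, edgeR called 0 members (0% of all genes) with 1 at an unadjusted p under 0.05 (3.6%), and DESeq2 called 1, WRKY51 (1.15% of all genes). This test includes the library labelled phr1 phl1 low+P. Without it edgeR also called 0 members, with the share of all genes not computed.

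**Figure D4:**
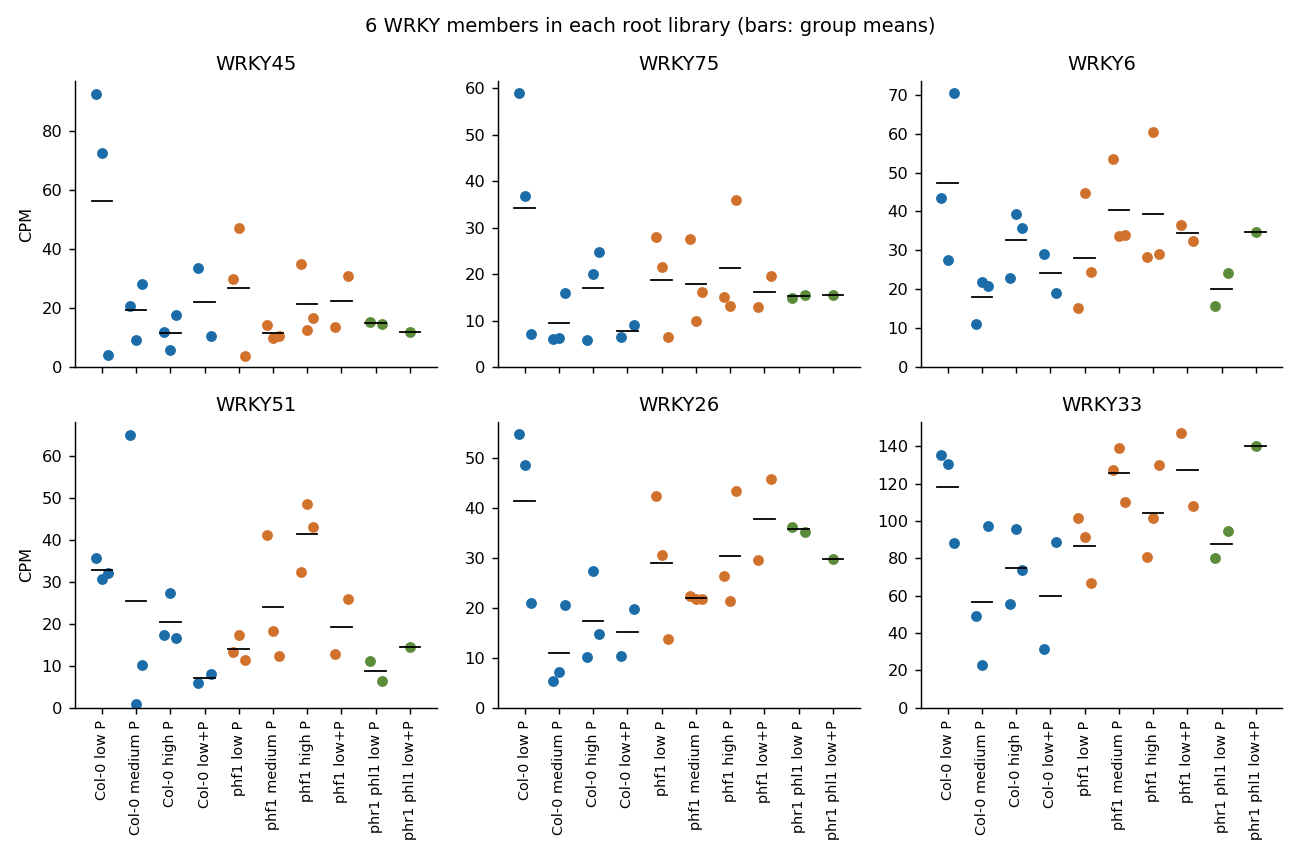
CPM of WRKY45, WRKY75, WRKY6, WRKY51, WRKY26 and WRKY33 in each root library by group (points; horizontal bars, group means), with Col-0 in blue, phf1 in orange and phr1 phl1 in green. WRKY51 lies between 30.7 and 35.8 CPM in Col-0 low P and at 5.94 and 8.10 CPM in Col-0 low+P, but spans 0.816 to 65.0 CPM in Col-0 medium P.

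The long-term fertilization series asked how members differ between soils kept at 3 P inputs. In Col-0 low against medium P, 0 of 42 members were called by edgeR (0.00541% of all genes), 7 had an unadjusted p under 0.05, 6 of them higher in low P (7.91% of all genes, 3.63% higher and 4.28% lower), and DESeq2 called WRKY26 and WRKY6 (1.92% of all genes). The log2 fold change was positive in 34 of 42 members (51.3% of all genes), with a median of 0.46, against 0.01 over all genes. WRKY26 was at 5.31, 7.14 and 20.5 CPM in medium P, below its 3 low P libraries, with a log2 fold change of 1.93 (SE 0.56, edgeR adjusted p = 0.484, DESeq2 adjusted p = 0.0643). WRKY6 was at 11.1, 21.8 and 20.9 CPM in medium P, again below low P, with a log2 fold change of 1.47 (SE 0.44, edgeR adjusted p = 0.484, DESeq2 adjusted p = 0.0995). For WRKY26 the medium P library nearest to low P was C, and without it edgeR called the gene (log2 fold change 2.70, adjusted p = 0.0965, with 1.08% of all genes called). The value for WRKY26 was 1.64 without medium P library A, its lowest over the left-out libraries. Without low P library C the value for WRKY6 was 0.96.

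WRKY41, a group III member linked to seed dormancy and defence, was at 5.96, 4.6 and 4.85 CPM under low P in Col-0 and at 1.33, 1.02 and 2.70 CPM in medium P. The groups do not overlap, and the log2 fold change was 1.62 (SE 0.59, edgeR adjusted p = 0.538). The medium P values of WRKY41 rest on 5, 5 and 15 reads, and a gene on the opposite strand overlaps it. WRKY21 was at 64.7, 71.0 and 55.5 CPM in medium P, above all low P libraries, with a log2 fold change of -0.73 (SE 0.26, edgeR adjusted p = 0.531), or -0.48 without low P library C. In medium P, library A had PHT1;1 at 0.796 CPM and PHO1 at 89.7 CPM, both the lowest of all 25 libraries, beside the highest WRKY46, WRKY50 and WRKY51, so 1 library of this group stood apart in the targets as well as in the family.

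Between Col-0 low and high P, 0 of 42 members were called by either tool (0.00541% of all genes by edgeR and 0.766% by DESeq2), and 3 had an unadjusted p under 0.05 (6.08% of all genes). Their groups overlap. WRKY45 was at 11.8, 5.69 and 17.7 CPM in high P, below low P libraries A and B but not C. WRKY51 was at 17.3, 27.3 and 16.6 CPM in high P and WRKY40 at 3.80, 4.55 and 3.24 CPM. For both, the 3 low P libraries lie above the 3 high P libraries without an unadjusted p under 0.05. WRKY20 and WRKY21 separate the other way, with all 3 low P libraries below the 3 high P libraries. Libraries thus did not overlap for 2 members that were higher and 2 that were lower (719 and 1626 of the 18469 genes tested). Across the 4 regimes of Col-0, edgeR called 0 members (0.00541% of all genes) with WRKY26 and WRKY6 at an unadjusted p under 0.05 (6.08%), and DESeq2 called 0 (1.76% of all genes).

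In phf1 the soil series gave 0 called members by either tool in each of its 3 tests (by edgeR, 0% of all genes in each; by DESeq2, 0.00872% across regimes, 0.00436% for medium P and 0.0262% for high P). At an unadjusted p under 0.05 there was 1 of 41 members across regimes (1.57% of all genes), with 0 between low and medium P (3.17% of all genes) and 1 between low and high P (2.89%). In both cases it was WRKY51, which was at 32.2, 48.7 and 43.2 CPM in phf1 high P, above its 3 low P libraries, with a log2 fold change of low against high P of -1.48 (SE 0.44, edgeR adjusted p = 0.999). Its values in low and high P thus have the opposite order in phf1 and in Col-0. The touch and wound genes had the same reversal. They summed to 278 to 350 CPM under low P and 453 to 1194 CPM under high P in phf1, where 11 of 11 were negative, but to 493 to 634 CPM under low P and 242 to 319 CPM under high P in Col-0, where 11 of 11 were positive. In the same phf1 contrast 8 of 8 root markers were negative (median -1.10). So were 7 of 8 shoot markers (median -1.83, 2 at an unadjusted p under 0.05). In Col-0 low against high P, 5 of 8 root markers and 4 of 8 shoot markers were positive. The part of these 3 lists in the WRKY51 values was not tested.

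The difference between Col-0 and phf1 in the change from low P to the mean of medium and high P was tested as well. By edgeR 0 of 43 members passed (0.0158% of all genes), DESeq2 called 0 (0.329%), and 6 had an unadjusted p under 0.05 (6.2%). The difference was positive in 36 of 43 members (49.5% of all genes), with a median of 0.46. The marker lists had positive differences in the same contrast: 11 of 11 touch and wound genes (median 2.50, 4 at an unadjusted p under 0.05), 8 of 8 shoot markers (median 2.43, 3 at an unadjusted p under 0.05) and 7 of 8 root markers (median 1.39). None of these genes was called by edgeR, and their part in the WRKY values was not tested. The difference was 1.53 for WRKY6 (SE 0.52), 1.26 for WRKY33 (SE 0.49) and 2.33 for WRKY29 (SE 0.94), the last a member of the flagellin response, and -0.87 for WRKY21 (SE 0.27). The edgeR adjusted p of these 4 ran from 0.735 to 0.788. Leaving out library C of Col-0 low P, the difference was 1.44 for WRKY29 and 1.03 for WRKY6.

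Averaged over the 4 regimes, phf1 and Col-0 differed in 0 of 43 members by edgeR (0.0263% of all genes), with a smallest adjusted p of 0.245. At an unadjusted p under 0.05 there were 7 members, all higher in phf1, beside 12% of all genes, 5.75% higher and 6.23% lower. The log2 fold change was positive in 30 of 43 members (48.8% of all genes). They were WRKY41, WRKY7, WRKY28, WRKY33, WRKY26, WRKY25 and WRKY53. WRKY41 had a log2 fold change of 0.87 (SE 0.27, edgeR adjusted p = 0.245), the calmodulin-binding WRKY7 of 0.48 (SE 0.16, edgeR adjusted p = 0.268) and WRKY28, an activator of the salicylate synthesis gene ICS1, of 0.78 (SE 0.26, edgeR adjusted p = 0.272). DESeq2 called WRKY41 alone (adjusted p = 0.0987, 2.75% of all genes). WRKY41 ranged from 1.02 to 6.66 CPM over the 11 Col-0 libraries and from 3.27 to 10.5 CPM over the 11 phf1 libraries. These ranges overlap, and the 2 lowest Col-0 values are those of medium P libraries A and B, with 5 reads each. Reads of WRKY41 cannot be told apart from those of the opposite strand gene that overlaps it. Without Col-0 medium P library C edgeR called 1 member (1.33% of all genes), which was not WRKY41, WRKY7 or WRKY28. All 8 shoot markers were higher in phf1 in the same contrast, with log2 fold changes of 1.54 to 2.68, and DESeq2 called all 8. Of the touch and wound genes, 10 of 11 were higher in phf1 (median 0.47, 1 at an unadjusted p under 0.05). All 8 root markers were lower (median -0.40). In these last 2 lists 0 genes were called by either tool. The part of the 3 lists in the WRKY values was not tested.

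Correlations between members were taken over all libraries, with differences between groups left in. No median was computed for pairs of other genes. Over the 37 members with a mean of at least 5 CPM, log2(CPM + 1) had a median Pearson correlation of 0.19 over 666 pairs in 25 libraries, 0.30 within a structural group and 0.16 between groups. The points share library and depth, so these are descriptions. WRKY72, a group IIb member of basal defence, was at the centre of the closest set, with r = 0.87 to WRKY61, 0.84 to WRKY11 and 0.84 to WRKY29. WRKY46 and WRKY51 had r = 0.82, WRKY33 and WRKY53 0.81 and WRKY26 and WRKY75 0.80. The lowest value was -0.70, for WRKY17 and WRKY71.

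The set around WRKY72 followed the root markers. The correlation with the mean log2 level of the 8 markers was 0.79 for WRKY72 and for WRKY17, 0.72 for WRKY47, 0.69 for WRKY11 and 0.65 for WRKY29, and it was -0.66 for WRKY45, -0.60 for WRKY32 and -0.56 for WRKY15. Within groups, after the group means were subtracted, it was 0.93 for WRKY72, 0.88 for WRKY11 and WRKY29, -0.76 for WRKY45 and -0.73 for WRKY15. Without library C of Col-0 low P it was 0.76 for WRKY72 and -0.61 for WRKY45. The family is not particular in this: r was above 0.5 in 21.6% of members and 18.6% of the 15487 genes at this level, and below -0.5 in 8.11% and 12.7%. WRKY51 (-0.01), WRKY33 (0.04), WRKY75 (-0.20) and WRKY26 (-0.24) had values nearer 0 over the 25 libraries, and after the group means were subtracted these were -0.32, 0.03, -0.35 and -0.21. WRKY40 had r = 0.77 with the touch and wound genes, the highest of the family, followed by WRKY54 at 0.63 and WRKY33 at 0.56.

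**Figure D5:**
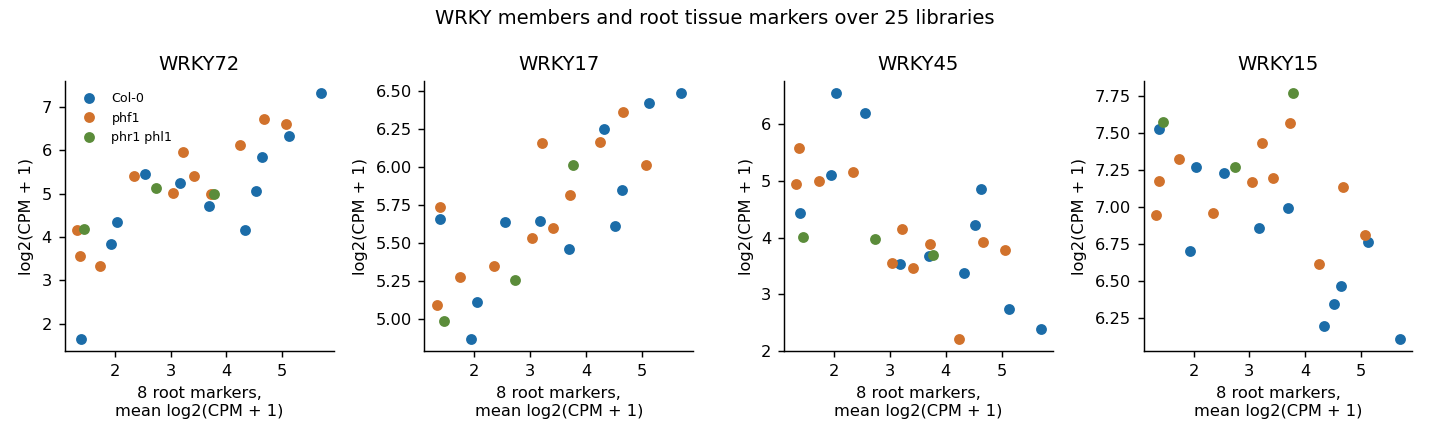
Log2(CPM + 1) of WRKY72, WRKY17, WRKY45 and WRKY15 against the mean log2(CPM + 1) of 8 root tissue markers in 25 libraries (points; Col-0 blue, phf1 orange, phr1 phl1 green). WRKY72 (r = 0.79) and WRKY17 (r = 0.79) are high where the markers are high, and WRKY45 (r = -0.66) and WRKY15 (r = -0.56) are low there.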

How the data were processed

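Roots of 8-week-old plants were profiled by poly(A)-selected, non-stranded RNA-Seq. Per the labels and the methods of the study, the authors used Trimmomatic 0.36 to discard adaptor-containing reads, aligned what remained to TAIR10 (HISAT2 2.1.0) and counted it per gene with featureCounts (Subread); the strand setting is not given in the sources used here. What the authors deposited are raw, whole counts for every gene in each library, and CPM values here were obtained by dividing by library totals. Columns were assigned to groups from the group names above them; they carry no replicate number or plot.

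Tests used edgeR 4.0.16 in R 4.3.3, after the filterByExpr filter and TMM scaling (quasi-likelihood F test, two-sided, prior count 0.125, Benjamini-Hochberg over all genes tested, threshold 0.1). Low and low+P libraries were fitted together (13 libraries, 18830 genes, 42 members), as were the 11 Col-0 (18469 genes), the 11 phf1 (18606 genes, 41 members) and the 22 Col-0 and phf1 libraries (19034 genes, 43 members), 15 comparisons in all. The biological coefficients of variation were 0.386 to 0.462. Each SE was derived from the F statistic (fold change on the log2 scale over its root). DESeq2 1.42.0, RLE factors, 2 other filters, a threshold of 0.05, all 25 libraries in 1 fit, each library left out in turn and a root marker covariate were alternatives; genes without a DESeq2 adjusted p stayed out of its counts. The tests were also run on simulated counts with large planted changes, which does not show whether smaller changes would be called. The closest libraries of a group, Col-0 low P A and B, differed by more than sampling noise (median chi-square 1.24 over genes), so none were merged. Positions and sequences come from RefSeq gene models of TAIR10.1, in which all 44 members were matched by identifier. Exon length is the union of exons. Opposite strand genes overlap 10 members: WRKY1, WRKY2, WRKY4, WRKY29, WRKY33, WRKY40, WRKY41, WRKY53, WRKY61 and WRKY69.

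Named in full were the phosphate-linked members, WRKY33, group IIa and, per comparison, up to 3 members each way with the smallest unadjusted p under 0.05 whose groups do not overlap, or, for averages and differences over groups, with the smallest such p alone; other members and groups are given as counts, and those named beyond this rule were chosen after their values were seen. The members and the gene lists were chosen with earlier results of these data known. Lists were the WRKY kinases (8 genes), VQ partners (3 genes, 0 called in any comparison by edgeR), WRKY targets (10 genes, 9 tested), touch and wound genes (11), root markers (8), shoot markers (8) and the mutated genes.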

Additional observations from a re-analysis of the deposited data

How the results depend on the processing

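The count of members called by edgeR was 0 in all 15 comparisons and stayed 0 in 296 of 306 alternative counts. The exceptions were DESeq2, with 1 member across the 6 low and low+P groups, 2 in Col-0 low against low+P, 2 in Col-0 low against medium P, 1 in the genotype difference of the low against low+P change, 1 in phf1 against Col-0 averaged over regimes and 1 in phr1 phl1 against Col-0. The root marker covariate, chosen after seeing the data, gave 5 members in Col-0 low against low+P and 1 in the genotype difference of that change. Leaving out 1 library gave 0 to 1 members in Col-0 low against medium P and 0 to 1 in phf1 against Col-0 averaged over regimes, in both cases 1 when Col-0 medium P library C was left out (1.08% and 1.33% of all genes called). Of 34 named log2 fold changes, 33 kept their sign in every alternative run. The exception was WRKY60 in Col-0 low against low+P, which ranged from -0.23 to 0.77 over the left-out libraries and was -0.001 and -0.23 without low P library B and low+P library B. The cause of these changes was not tested. No paired analysis was possible because the columns of counts carry neither replicate number nor plot, so the block planned as an alternative was not run. With 1 to 3 libraries per group and 1 CPM standing for 2 to 7 reads, WRKY42, at 1.29 CPM at most, could not be compared at this depth. Comparisons of members at a few CPM, such as WRKY41 and WRKY60, rest on few reads.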
